A study of Rattus norvegicus with 15 samples.

Results

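Circular RNAs (circRNAs) of whole blood 12 h after modelling of deep venous thrombosis were compared with those of sham rats. The comparison rests on 6 of the 15 libraries of the study, 3 from sham blood (0 h) and 3 from blood at 12 h, and covers the 9119 circRNAs, of 43472 in the whole table, that were above 0 in at least 3 of these 6 libraries. The rule does not use the grouping of the libraries. All animals were males of the Sprague-Dawley stock, outbred laboratory rats, aged 6 to 8 weeks and weighing between 250 and 300 g. Blood was collected into PAXgene tubes, which stabilise RNA at the draw. The labels give neither the vein nor the procedure of the model, and they leave unsaid whether each library stands for an animal of its own. P-values therefore rest on the spread between libraries, not between animals, and that spread may be technical. Sham libraries carry a title prefix ending in A&B, as do those of 1 h and 3 d, whereas 12 h libraries carry one ending in C, as do those of 6 h. Prefix and time are confounded here, so their effects cannot be told apart, and with sham in A&B alone and 12 h in C alone no value within a prefix exists.

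A circRNA forms when a splice donor is joined to an acceptor upstream of it, which leaves a closed loop without ends. Such loops resist the exonucleases that degrade linear RNA, and they are known to be plentiful in blood, in particular in platelets and red cells, which carry RNA but no nucleus. Thrombosis draws on platelets, leukocytes and the vessel wall, so blood drawn after it can differ in the cells present as well as in the RNA each cell holds, and in bulk blood these cannot be told apart. The table identifies circRNAs by running numbers, without host genes, positions or sequences. No gene, pathway or marker of a cell type could therefore be assigned, and the blood label could not be checked against markers.

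Levels are given as SRPBM, back-spliced reads per 1e9 mapped reads of the library. The 6 libraries held 66.0 M (sham replicate 2) to 92.4 M (12 h replicate 3) mapped reads, where M stands for 1e6. Sham replicate 2 stood apart. It listed 2195 of the 9119 circRNAs, against 6676 and 7724 in sham replicates 1 and 3 and 7787, 8200 and 7240 in 12 h replicates 1, 2 and 3. The median listed circRNA had 20 reads in sham replicate 2 and 8 to 11 in the other 5, so it was mainly the low circRNAs that this library lacked. Results below are given with and without it. A value of 0 is called listed at 0, since the table holds nothing under 2 reads.

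Counts of listed circRNAs and summed levels did not separate the groups. The 12 h libraries listed 7742 ± 482 of them and the sham libraries 5532 ± 2937 (SD, n = 3 each), a ratio of 1.40 with exact permutation p = 0.2 (two-sided, adjusted p = 0.4 over 4 such tests, where 3 libraries against 3 cannot give less than 0.1). Without sham replicate 2 the ratio was 1.08, and sham replicate 3 lay above 12 h replicate 3. Their summed signal was 12.7, 2.91 and 20.4 M SRPBM in sham replicates 1 to 3 and 18.7, 20.4 and 13.4 M at 12 h (ratio 1.45, exact permutation p = 0.5, adjusted p = 0.667), and the groups overlapped. Without sham replicate 2 that ratio was 1.05. The 4 highest circRNAs held 83.7% to 87.2% of the summed signal in the other 5 libraries, and 37.8% in sham replicate 2. CBT15_circR_5191, the highest, was at 0 there. The level of the median listed circRNA (90.3, 303 and 104 SRPBM in sham, 112, 125 and 97.4 SRPBM at 12 h) gave exact permutation p = 0.9, also as adjusted. Mapped reads, the last of the 4 quantities tested, gave exact permutation p = 0.2 (adjusted p = 0.4).

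Listing patterns leaned towards 12 h, and most of that lean went with sham replicate 2. Of the 9119 circRNAs, 1568 (17.2%) were listed in all 6 libraries, and a further 2542 (27.9%) in every library but sham replicate 2. More 12 h than sham libraries listed 5783 circRNAs (63.4%), fewer listed 801 (8.78%), and 2535 (27.8%) were listed in equal numbers. Counting sham replicates 1 and 3 alone, the listed share was higher at 12 h for 3347 circRNAs (36.7%), lower for 1662 (18.2%) and the same for 4110 (45.1%). Part of this lean is set by the rule, which drops a circRNA listed only in sham replicates 1 and 3. The 2 extremes of the pattern were small. 315 circRNAs were listed in all 3 libraries at 12 h and in no sham library, at a median of 5 reads per listed value, and 15 were listed in all 3 sham libraries and in none at 12 h, at a median of 7 reads. Both sets passed the rule through 1 group alone, so a difference in them is fixed by the rule and supports nothing.

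**Figure D1:**
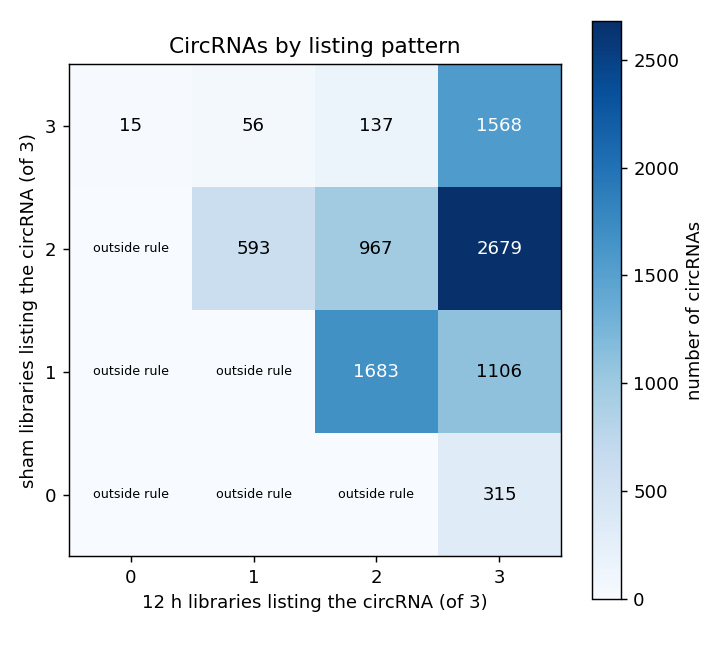
CircRNAs by the number of 12 h libraries (x axis) and sham libraries (y axis) that list them. Colour and printed numbers give the count of circRNAs, and cells under 3 libraries lie outside the rule. The fullest cell holds the 2679 circRNAs listed in all 3 libraries at 12 h and in 2 of 3 sham libraries, and the cell for all 6 libraries holds 1568.

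Just outside the rule, 4347 circRNAs were listed in 2 of the 6 libraries, at a median of 4 reads per listed value. Just inside it, 2606 were listed in 3 of 6, at a median of 5 reads. The limit thus falls among circRNAs of a few reads, where listing by itself is uncertain.

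CircRNAs of higher level were listed more completely. Classes were set by the mean level over the 6 libraries, without regard to group. Of the 3192 circRNAs under 50 SRPBM, sham replicates 1, 2 and 3 listed 50.2%, 3.70% and 71.4%, and 12 h replicates 1, 2 and 3 listed 70.0%, 79.5% and 61.0%. A listed value in this class stood for a median of 4 reads in the 5 libraries other than sham replicate 2. Apart from sham replicate 2 the groups overlapped, with sham replicate 3 above 12 h replicates 1 and 3. In the class of 200 to 500 SRPBM (1154 circRNAs, median 28 reads) the 5 other libraries listed 97.4% to 98.8%, whereas sham replicate 2 listed 49.7%. From 1000 to 5000 SRPBM (368 circRNAs, median 153 reads) all 3 libraries at 12 h listed 100%, sham replicates 1 and 3 listed 99.5% and 99.7%, and sham replicate 2 listed 93.2%.

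**Figure D2:**
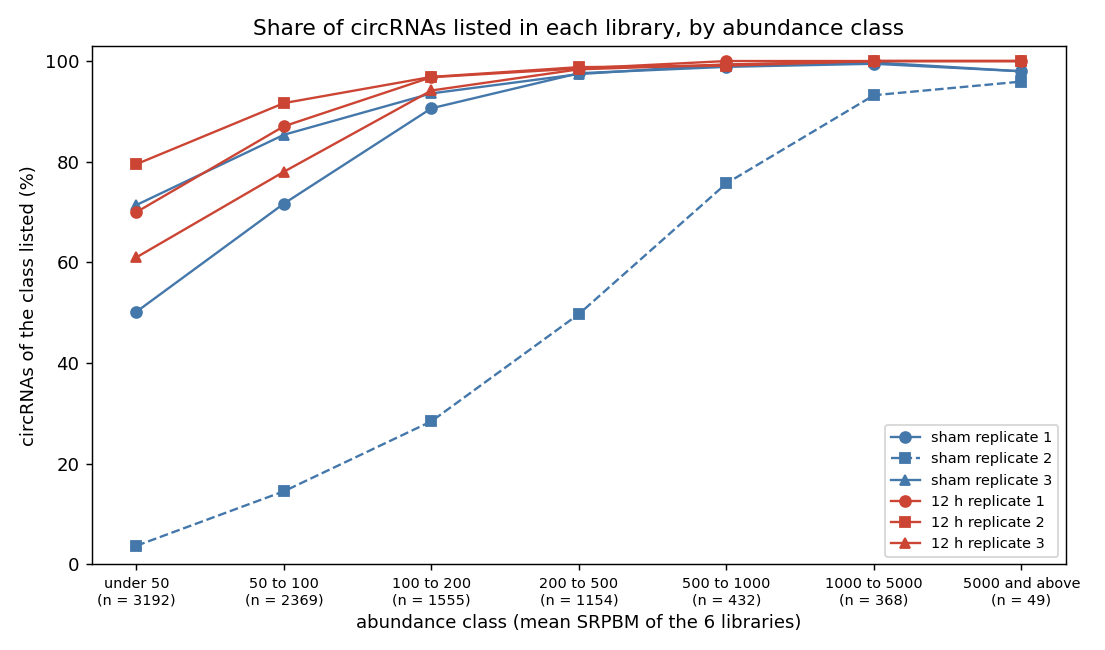
Share of the circRNAs of each abundance class (x axis, mean SRPBM over the 6 libraries) that a library lists (y axis, percent), with sham libraries in blue and 12 h libraries in red. Sham replicate 2, dashed, climbs from 3.70% in the lowest class to 95.9% in the highest, while the other 5 libraries list 90.6% or more from 100 SRPBM upwards.

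Levels at 12 h were on the whole above those of sham, by an amount that varied more between abundance classes with sham replicate 2 than without it. Changes are on the scale log2(SRPBM + 23.2), which understates the change of low circRNAs. The median change over the 9119 circRNAs was 0.70, against 0.43 over all 16767 circRNAs tested, and 78.9% of the 9119 lay above 0, against 70.5% of all tested. By class the median was 0.55 under 50 SRPBM, 0.79 from 50 to 100, 0.97 from 100 to 200 and 1.02 from 200 to 500. Above that it was smaller, at 0.51 from 500 to 1000, 0.48 from 1000 to 5000 and 0.44 from 5000 upwards.

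Without sham replicate 2 the median change was 0.29 over the 9106 circRNAs then still tested, and the 7 classes lay close together. Their medians then ran from 0.27 (under 50, and again from 5000 upwards) to 0.32 (100 to 500 SRPBM), and 66.0% of the circRNAs were above 0. The ratio of summed signal in these 5 libraries was the 1.05 given above, a sum that rests mostly on the 4 highest circRNAs. Without the 10 highest, the sum was 1.78 and 2.41 M SRPBM in sham replicates 1 and 3. At 12 h it was 2.60, 3.09 and 1.91 M, the last below sham replicate 3. Scaled in addition to the total signal without the 10 highest circRNAs, the 5 libraries gave class medians of 0.16, 0.10, 0.08, 0.06, 0.03, 0.01 and -0.01 from the lowest to the highest class, and 0.10 over all. That scaling without leaving out sham replicate 2 gave 0.53 over all, 0.76 from 200 to 500 SRPBM and 0.03 from 5000 upwards. With classes set instead by the mean of the 9 libraries of 1 h, 6 h and 3 d, medians were again highest at 200 to 500 SRPBM, with 1.04, against 0.53 in the lowest class and 0.51 in the highest.

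**Figure D3:**
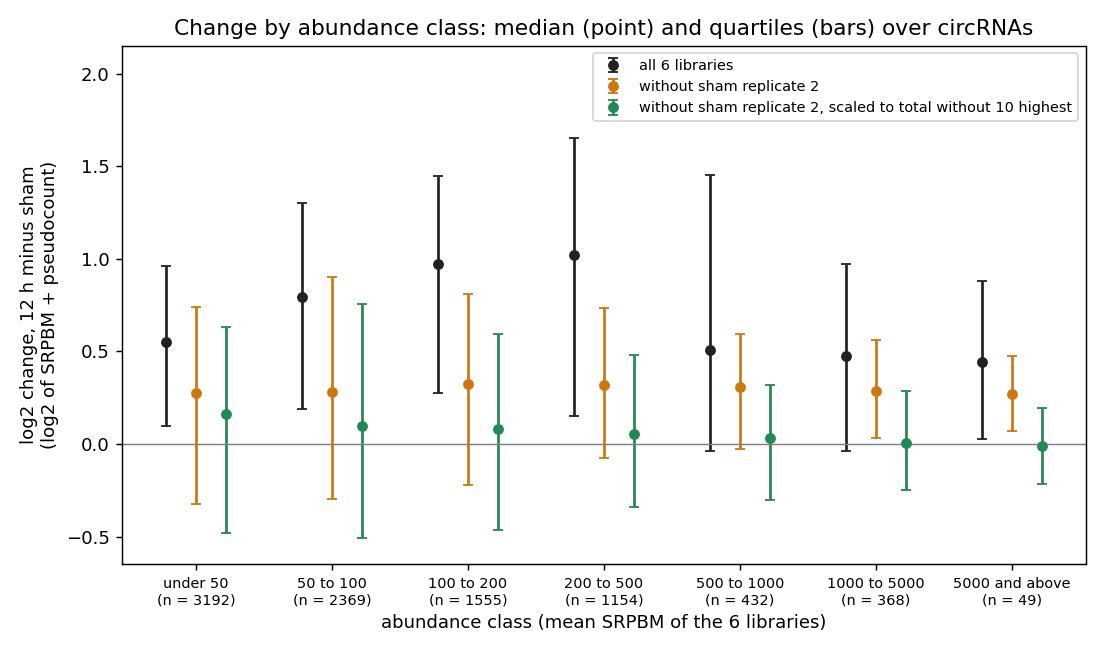
Change from sham to 12 h (y axis, log2 scale) by abundance class (x axis, mean SRPBM over the 6 libraries). Points are medians and bars quartiles over the circRNAs of a class, which are not replicates. With all 6 libraries (black) the medians reach 1.02 at 200 to 500 SRPBM, without sham replicate 2 (orange) they lie at 0.27 to 0.32, and without it and scaled to the total without the 10 highest (green) at -0.01 to 0.16.

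Where no library was at 0, no pseudocount was needed, and changes are given as ratios of geometric means. The 1568 circRNAs listed in all 6 libraries had a median log2 ratio of 0.20 (quartiles -0.31 and 0.66), a 1.15-fold higher level at 12 h, and without sham replicate 2 the value was 0.21 (quartiles -0.16 and 0.58). The 4110 circRNAs listed in the 5 other libraries had 0.29 without sham replicate 2, a fold of 1.22, next to 0.29 for the full set without that library on the scale with a pseudocount. Among the 1568, the 342 of 1000 to 5000 SRPBM were at 0.39, or 0.28 without sham replicate 2, and the 294 of 100 to 200 SRPBM at -0.06, or 0.10 without it. The 48 of 50 to 100 SRPBM were at -0.28 and turned to 0.17 without sham replicate 2.

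Libraries of one group were also shifted against each other. Over the 1568 circRNAs, the median log2 ratio of 12 h replicate 2 to 1 was 0.19, of replicate 3 to 1 -0.46 and of replicate 3 to 2 -0.65, and that of sham replicate 3 to 1 was 0.23. Against sham replicate 1 the 12 h libraries had 0.40, 0.59 and -0.06, and against sham replicate 3 0.18, 0.37 and -0.32, so that 12 h replicate 3 lay below both.

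Distances were also taken without regard to sign. Over the 1568 circRNAs, the median absolute log2 ratio between 2 libraries at 12 h was 0.43 (replicates 1 and 2), 0.61 (1 and 3) and 0.76 (2 and 3). Sham replicates 1 and 3 were 0.80 apart. The 6 pairs of one of these sham libraries with a 12 h library lay at 0.52 to 0.80, close to the 0.43 to 0.80 of pairs inside a group. Pairs of sham replicate 2 with a 12 h library lay at 1.02 to 1.11, and it was 0.77 and 1.09 from sham replicates 1 and 3. Sham replicate 3 was nearer to each of 12 h replicates 1, 2 and 3 (0.52, 0.56 and 0.62) than to sham replicate 1.

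**Figure D4:**
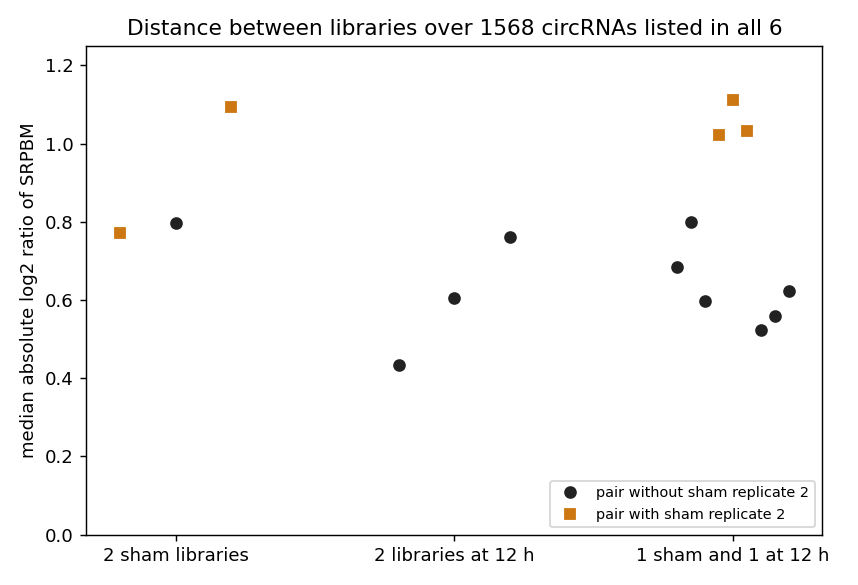
Median absolute log2 ratio of SRPBM (y axis) for each pair of the 6 libraries, over the 1568 circRNAs listed in all of them; squares are pairs with sham replicate 2. Pairs of a sham and a 12 h library without sham replicate 2 lie at 0.52 to 0.80, and such pairs inside a group at 0.43 to 0.80.

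Single circRNAs were tested with limma over the 16767 circRNAs that 3 or more of the 15 libraries listed, with all 5 groups in the fit and a Benjamini-Hochberg adjusted p under 0.05 as the limit. Limma draws the spread of a circRNA towards that of circRNAs of similar level. The SE and p given here therefore do not rest on the circRNA's own spread alone, and can be far from it. At 12 h against sham 8 were called, 0.0477% of those tested, all of them higher at 12 h and all among the 9119. Unadjusted, 817 of the 9119 had p under 0.05, of which 760 were higher and 57 lower, beside 1114 of all 16767. Without sham replicate 2 these counts were 293 of 9106 and 467 of 16666. The calls lay in the classes above 200 SRPBM, 2 each from 200 to 500, 500 to 1000, 1000 to 5000 and 5000 upwards, and none of the 7116 lower circRNAs was called. The pseudocount of 23.2 caps the change that a low circRNA can reach, so the lack of calls there says little about these classes. All 8 were listed in each 12 h library and at 0 in at least 1 sham library, and 7 were at 0 in at least 2 sham libraries, of which 2 in all 3. Sham replicate 2 was at 0 for 7 of the 8. In simulated data that kept each circRNA's share of zeros, the same fit also called circRNAs that had no change, which limits what these calls show. With libraries scaled to their total circRNA signal, limma called 6, of which 3 were higher and 3 lower. Fitted on the 9119 circRNAs alone limma called 1 (CBT15_circR_5184), and fitted on the 1568 listed in all 6 libraries the count was 0, while 50 had p under 0.05 before adjustment. Those 1568 include none of the 8, each of which was at 0 in a sham library. Without sham replicate 2 limma called 4 (all higher, all among the 8), without 12 h replicate 2 or 3 it called 1, without 12 h replicate 1 it called 5, and without sham replicate 3 it called 19.

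The largest fitted change was that of CBT15_circR_5184, a circRNA of the highest class and one of the 315 that met the rule through 12 h alone, so its test supports nothing. The sham libraries were all at 0, and those of 12 h at 1.69, 1.74 and 1.12 M SRPBM, from 103195 to 153500 reads. Outside this comparison it was at 2.11 M in 1 h replicate 2 and 2.06 M in 6 h replicate 3, and listed at 0 in the other 7 libraries. With sham at 0 no fold is given; limma gave adjusted p = 1.31e-28. It was called in 17 of 20 alternatives, but not with the spread freed from abundance (limma adjusted p = 0.351), with a robust spread (0.759) or by voom (0.984).

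CBT15_circR_5191, the most abundant circRNA, was called although its groups overlapped. Its level was 9.15, 0 and 15.2 M SRPBM in sham replicates 1, 2 and 3, against 12.1, 13.2 and 8.74 M at 12 h. Outside this comparison it was also at 0 in 1 h replicates 1 and 2 and in 6 h replicate 3. The remaining libraries of 1 h, 6 h and 3 d held 9.66 to 28.7 M, so it too was all or none across the study. All 3 libraries at 12 h lay below sham replicate 3, and the fitted change of 6.24 (SE 1.24, limma adjusted p = 0.00471) came with the 0 of sham replicate 2. Without that library the change was -0.08, with adjusted p = 1. Its call held in 7 of 21 alternatives, and was lost with the spread freed from abundance (limma adjusted p = 0.771).

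CBT15_circR_36565 had the tightest 12 h values of the 8. It too is among the 315 that met the rule through 12 h alone, and its test likewise supports nothing. The sham libraries were all at 0, and those of 12 h at 693, 646 and 725 SRPBM, from 57 to 67 reads (688 ± 39.9, SD, n = 3; limma adjusted p = 0.00471). At 6 h it lay at 701, 869 and 1413 SRPBM. In the other libraries it was uneven, at 368, 0 and 3006 SRPBM at 1 h and at 1373, 0 and 0 at 3 d. The call held in 9 of 20 alternatives, among them leaving out any one sham library, and was lost without any one 12 h library (limma adjusted p = 0.0647, 0.111 and 0.121).

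CBT15_circR_4859 was low in sham and high in every library with prefix C. Sham blood had 67.7, 0 and 0 SRPBM, the first from 6 reads, whereas blood of 12 h had 738, 1790 and 747, from 66 to 158 reads. The mean at 12 h was 48.4-fold that of sham, on a sham mean resting on those 6 reads, and limma gave a log2 change of 4.80 (SE 0.97, adjusted p = 0.00471). At 6 h it lay at 747, 1291 and 975 SRPBM, against 0, 332 and 450 at 1 h and 346, 0 and 173 at 3 d. The difference between 12 h and 6 h was 0.02 (SE 0.97, limma adjusted p = 1). Its call held in 13 of 20 alternatives, including without sham replicate 2 (limma adjusted p = 0.0259), and was lost without 12 h replicate 2 or 3 (0.217 and 0.0937). Every one of the 6 libraries with prefix C lay above all 9 with prefix A&B for this circRNA, as for 29 of the 16767 tested (0.173%), 1 of them a call. Such a circRNA is listed in all 3 libraries at 12 h, so all 29 meet the rule by definition.

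CBT15_circR_7716 was likewise low in sham blood, and at 3 d as well. Sham blood had 102, 0 and 0 SRPBM, and blood of 12 h had 660, 566 and 1061, so the groups did not overlap. At 6 h it was at 655, 821 and 475 SRPBM, at 1 h at 573, 285 and 248, and at 3 d at 0, 22.3 and 231. Limma gave 4.22 against sham (SE 0.96, adjusted p = 0.0352), a call found again in 6 of 20 alternatives but not without sham replicate 2 (0.176).

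CBT15_circR_40191 and CBT15_circR_22046 were each at 0 in sham replicates 1 and 2 but not in sham replicate 3. CBT15_circR_40191 lay at 615 SRPBM in sham replicate 3 (53 reads) and at 984, 1439 and 1494 SRPBM at 12 h (88 to 138 reads), a log2 change of 4.22 (SE 0.86, limma adjusted p = 0.00471). Its 12 h values were above sham replicate 3, and in the 9 libraries of 1 h, 6 h and 3 d it lay between 770 and 3119 SRPBM. CBT15_circR_22046 lay at 1450 SRPBM in sham replicate 3 and at 2057, 3093 and 1126 SRPBM at 12 h, with the last value below that sham library (change of 4.40, SE 0.91, limma adjusted p = 0.00654). Both lost their calls without sham replicate 2 (limma adjusted p = 0.155 and 0.358), and held them in 9 and 6 of 20 alternatives.

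CBT15_circR_25652 was all or none across the study. In sham it was listed only in replicate 2, at 1681 SRPBM (111 reads), and at 12 h in all 3 libraries, at 2247, 2742 and 2089 SRPBM. It was at 0 in 5 of the 9 other libraries and at 2656 to 5979 SRPBM in the other 4. The log2 change of 4.61 (SE 1.06, limma adjusted p = 0.0424) held in 4 of 20 alternatives. Leaving out the one sham library that listed it gave adjusted p = 0.000125, whereas leaving out sham replicate 1 or 3 gave 0.359 and 0.312.

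No circRNA was called lower at 12 h. The 2 with the smallest p in that direction missed the limit at the same adjusted value. Both are among the 15 that met the rule through sham alone, so their values are a description. CBT15_circR_39077 was at 699.5, 1181 and 81.2 SRPBM in sham, the last from 7 reads, while every 12 h library had 0 (limma adjusted p = 0.0576). CBT15_circR_20982 was at 248, 1045 and 197 SRPBM in sham, from 17 to 69 reads, and likewise had 0 throughout 12 h (adjusted p = 0.0576). They were called lower in 7 and 4 of 20 alternatives. Both were highest in sham replicate 2, and without it their limma adjusted p was 1 and 0.985. CBT15_circR_20982 was still listed at 3 d, at 167, 100.3 and 72.1 SRPBM, and in 1 library of 3 at 6 h, whereas CBT15_circR_39077 was at 0 in all 3 libraries at 3 d.

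**Figure D5:**
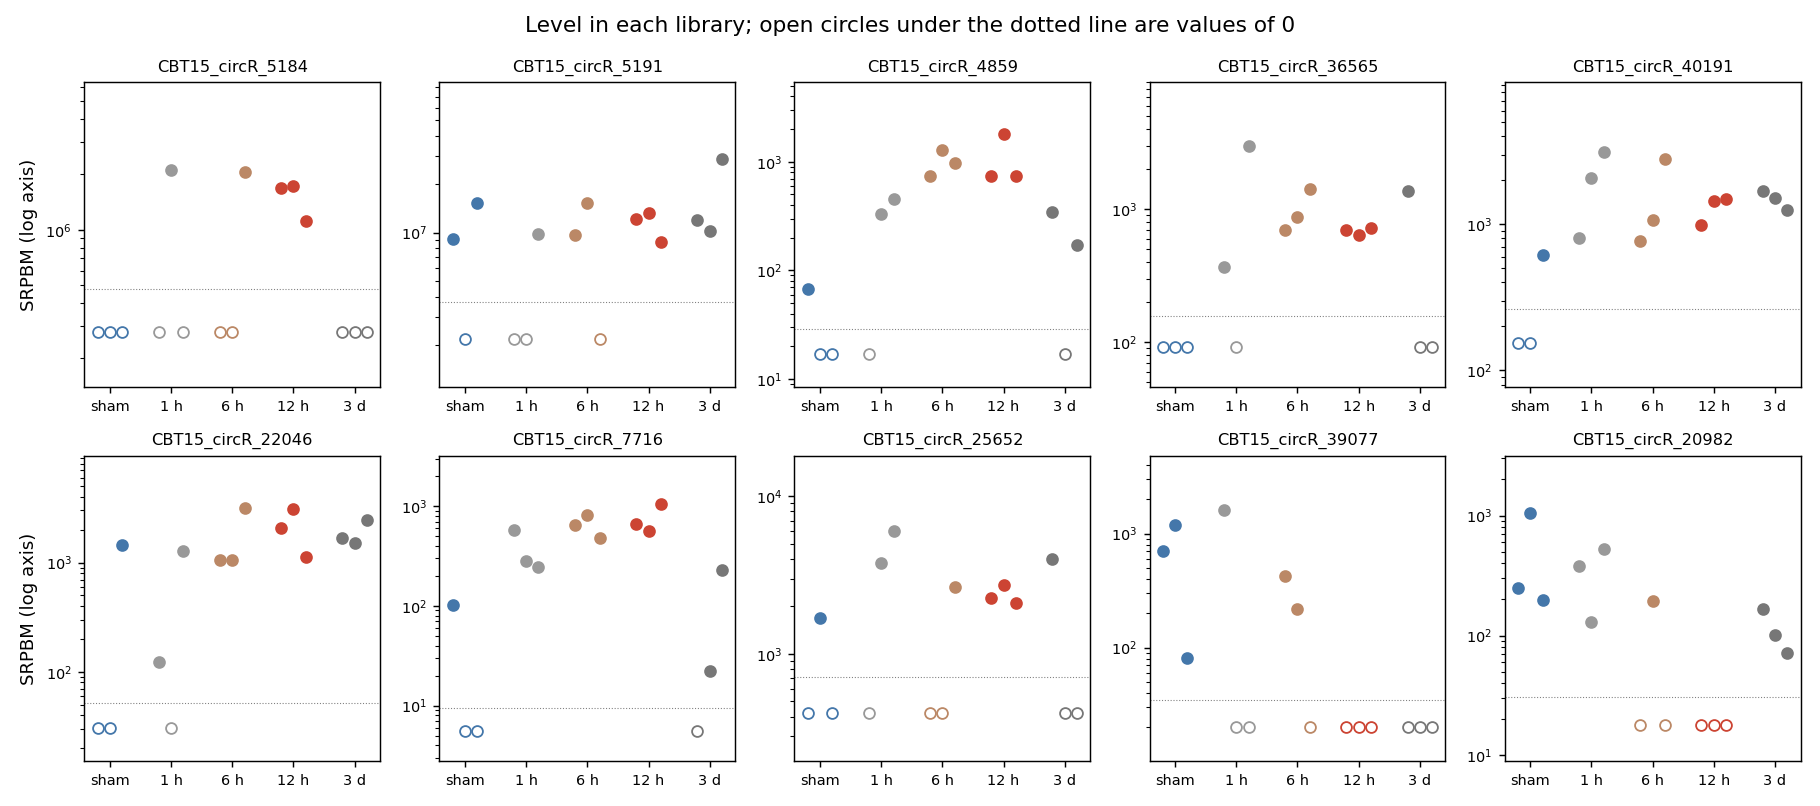
Level of the 8 called circRNAs and the 2 nearest to a call on the lower side (last 2 panels) in all 15 libraries, with time on the x axis and SRPBM on a log y axis whose range differs between panels. Each circle is a library; open circles under the dotted line are values of 0. In all 8 called circRNAs the 12 h libraries are listed and at least 1 sham library is at 0, and CBT15_circR_4859 is at 738 SRPBM or more in all libraries of 6 h and 12 h.

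Against 6 h, whose libraries carry the same prefix, the same 12 h libraries gave no call for 6 of the 8. The 2 called against 6 h were of the highest class. CBT15_circR_5184 differed by 10.49 and CBT15_circR_5191 by 6.21 (limma adjusted p = 1.37e-12 and 0.00713), with 2 of 3 libraries at 0 at 6 h in the first and 1 of 3 in the second.

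Groups that did not overlap were more often higher than lower at 12 h. All 3 libraries at 12 h lay above all 3 sham libraries for 1078 circRNAs, 6.43% of those tested, and below for 96, or 0.573%. A circRNA without overlap is listed in all 3 libraries of the higher group and so always meets the rule, which makes these counts those of the 9119 too (11.8% and 1.05% of them). The 1078 include the 315 at 0 in every sham library, and the 96 include the 15 at 0 throughout 12 h. Both of those sets are fixed by the rule. Even without overlap, 3 libraries against 3 cannot give an exact permutation p under 0.1, and these counts were not tested. By class the share above ran from 13.3% at 100 to 200 SRPBM to 4.08% from 5000 upwards, and the share below from 0.19% under 50 SRPBM to 4.08% from 5000 upwards, where each stood for 2 of 49 circRNAs. Against sham replicates 1 and 3 alone the counts within the 9119 were 1186 above and 450 below. Leaving out a library can only raise such counts, so their rise is no finding by itself. CircRNAs listed only in sham replicates 1 and 3 would lie below, but the rule drops them, so the 450 does not include them. A circRNA at 0 in sham replicate 2, as 6924 of the 9119 were, cannot lie below all 3 sham libraries at 12 h.

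The 315 circRNAs listed throughout 12 h and nowhere in sham were followed into the 9 libraries that did not choose them. They were listed at 53.3%, 42.5% and 62.2% in 6 h replicates 1, 2 and 3, at 43.5%, 33.3% and 44.4% at 3 d, and at 4.44%, 47.9% and 59.0% at 1 h. The times overlapped, with 1 h replicate 3 above 6 h replicates 1 and 2. 1 h replicate 1 listed the fewest of the 9119 circRNAs among the 15 libraries (1861). Over all 9119 the shares were 76.9%, 69.9% and 81.9% at 6 h and 71.0%, 63.5% and 70.1% at 3 d. At 1 h they were 20.4%, 73.2% and 82.3%, the last above every 6 h library. The 15 circRNAs listed throughout sham and nowhere at 12 h were found by 7, 8 and 7 of 15 at 6 h, by 4, 6 and 5 at 3 d and by 4, 5 and 13 at 1 h. Both 3 d and 1 h share their prefix with sham, and 5 of their 6 libraries listed fewer of the 15 than any 6 h library. The same 5 also listed a smaller share of all 9119 than 6 h replicates 1 and 3. Against 6 h replicate 2 (69.9%) the share was larger in 1 h replicate 2 (73.2%) and in 3 d replicates 1 and 3 (71.0% and 70.1%). A part played by the prefix was not tested.

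The circRNAs with the highest means include 2 that were listed in all 6 libraries. CBT15_circR_5185, second in mean level, had 1.54, 1.07 and 2.56 M SRPBM in sham blood, against 1.98, 1.98 and 1.39 M at 12 h, a log2 change of 0.12 (SE 0.14, limma adjusted p = 0.839). Its 12 h values lay inside the sham range. CBT15_circR_19347, next after the 3 already named, had 41068, 32690 and 81531 SRPBM in sham blood, against 95376, 120197 and 71129 at 12 h (a change of 0.97, SE 0.32, limma adjusted p = 0.733), with 12 h replicate 3 below sham replicate 3. Of the 1568 circRNAs listed in all 6 libraries, the smallest p belonged to CBT15_circR_22135, singled out after its values were seen. Sham blood had 85892.5, 92711 and 35842 SRPBM, and blood of 12 h had 42578, 55935 and 4243 (a change of -1.60, SE 0.46, limma adjusted p = 0.456), and the groups overlapped.

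The circRNA with the highest mean in each of the other classes is given as an example of the levels and reads there. Each SE is that of limma, drawn towards the spread of circRNAs of similar level, and is not the example's own precision. CBT15_circR_9521 (1000 to 5000 SRPBM) had 2629, 3059 and 5892 SRPBM in sham blood, against 7715, 7342 and 3225 at 12 h (202 to 690 reads; change of 0.65, SE 0.63). CBT15_circR_3877 (500 to 1000) had 733, 75.7 and 951 in sham blood, against 816, 2039 and 1342 at 12 h, sham replicate 2 being the low value with 5 reads (change of 1.67, SE 0.81, limma adjusted p = 0.733). CBT15_circR_34359 (200 to 500) had 248, 651 and 383 in sham blood, against 660, 623 and 433 at 12 h (22 to 59 reads; change of 0.48, SE 0.89). In all 3 the groups overlapped.

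The lower classes rested on reads few enough for single libraries to drop to 0. CBT15_circR_33459 (100 to 200 SRPBM) had 192, 227 and 81.2 in sham blood, against 224, 238 and 238 at 12 h, from 7 to 22 reads (change of 0.53, SE 0.95). CBT15_circR_26476 (50 to 100) had 67.7, 182 and 104 in sham blood, against 0, 181 and 64.9 at 12 h, from 6 to 16 reads where listed (change of -0.84, SE 0.99). CBT15_circR_11593 (under 50) had 90.3, 0 and 0 in sham blood, against 0, 90.6 and 119 at 12 h, from 8 to 11 reads where listed (change of 0.87, SE 0.99). None of the 6 class examples passed the test.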

How the data were processed

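The deposited table holds a signal, SRPBM (back-spliced reads per 1e9 mapped reads), normalized by the authors, for 43472 circRNAs in 15 libraries. Per the file's name circRNAs come from find_circ. Bowtie 0.12.2 and the build Rnor_6.0 are named in the submitters' processing notes; their roles and the calling thresholds were not given in the sources used here. Within a tolerance of 0.01 read, 100% of values came out as whole numbers of one step per library, never fewer than 2, from which reads and mapped reads follow; these cover counting error only, as PCR copies are not independent.

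Limma 3.58.1 in R 4.3.3 (trend on abundance) was fitted to log2(SRPBM + 23.2), the pseudocount being the median smallest value above 0, for 16767 circRNAs above 0 in at least 3 libraries, with 15 libraries and 5 groups in the fit, and p-values were Benjamini-Hochberg adjusted over all 16767. Exact permutation tests used scipy 1.17.1. On simulated data with each circRNA's observed share of zeros the fit recovered the median of known changes, but it also called some that were simulated without a change. Known changes were set only in circRNAs with few zeros, and zeros were spread at random over the libraries. Most of the calls at 12 h have more zeros than that, so the recovery does not cover them.

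Named circRNAs were those called (at most 10), the 2 of smallest p in a direction without a call, the 4 with the highest mean over the 6 libraries, and the highest in each class under 5000 SRPBM. The circRNAs, classes and tests were chosen with earlier results of these data known. Alternatives were other pseudocounts, filters, scalings, spreads, samples in the fit, a replicate block, voom and leaving out each replicate. A filter of all 6 libraries, and scaling combined with leaving out sham replicate 2, were added after the data were seen.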

Additional observations from a re-analysis of the deposited data

How the results depend on the processing

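The number of circRNAs called at 12 h against sham (8, all higher) depended on most settings tried. Limma called 1 with a pseudocount of 1 SRPBM, 13 with no filter (11 higher, 2 lower), 1 with the 9119 circRNAs alone, 0 with a filter of 5 or more of the 6 libraries (246 at an unadjusted p under 0.05) and 0 with those above 0 in all 6 (50 at that limit). It called 3 with scaling to the total without the 10 highest and 3 with median-ratio scaling, 1 without the trend (not among the 8), 13 in a fit of the 2 groups alone, 20 when sham replicate 2 and 1 h replicate 1 were both left out (7 of the 8 among them), and 1 with sham replicate 2 left out and that first scaling. Scaled to total circRNA signal it called 6, of which 3 were higher and 3 lower, while voom gave 9, including 3 of the 8. Leaving out 1 replicate gave 1 to 19 calls. Fewer circRNAs enter the fit under the stricter filters. The filter of all 6 libraries leaves out all 8 calls, and that of 5 or more leaves out the 7 at 0 in at least 2 sham libraries. A count of 0 there is therefore no new test of those calls. Otherwise the cause was not tested. The median change of 0.70 kept its sign under every setting run, being 1.94 for a pseudocount of 1 SRPBM, 0.17 for one increased 10 times, and 0.10 with sham replicate 2 left out and the libraries scaled. The change of CBT15_circR_5191 turned to -0.075 without sham replicate 2, with or without 1 h replicate 1, and to -0.36 when scaled as well, and leaving out 1 replicate gave -0.075 to 9.59. Over the 10 circRNAs tested one by one, alternatives kept the direction and the side of the limit in 100 cases, lost a call in 87, gained one in 11 and turned the direction in 3. The ratios of listed circRNAs and of summed signal stayed above 1 in every alternative run.

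With the replicate number as a replicate block limma called 13 (11 higher, 2 lower), the 8 among them. Deviations of same-numbered sham and 12 h libraries correlated at 0.00, -0.05 and -0.05 over 9119 circRNAs, so no pairing by number showed in these values. So few libraries cannot exclude one, and the labels give only the number. The planned edgeR test on recovered reads was not run, and voom is the alternative fitted to those reads. Depth limits the low classes, where a listed value under 50 SRPBM stands for a median of 4 reads.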
